A study of Mus musculus with 42 samples.

Results

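*Jchain* encodes the joining chain of secreted antibody, the small protein that plasma cells add to dimers of IgA and pentamers of IgM. It was the gene through which immunoglobulin expression was followed in these data. The rule took gene symbols of the heavy and light chain families together with *Jchain*, and in the 9 tables of mouse colon RNA used here it matched 1 of 20462 genes, *Jchain*. The heavy chain classes and the light chains were therefore not analysed here, and class switching, the balance of light chains and the use of variable genes cannot be described. Because 1 transcript cannot stand for a cell type, 15 other genes of plasma cells, 12 of B cells, 5 of germinal centers and 13 factors that attract, sustain or serve IgA plasma cells were followed beside it.

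RNA was sequenced from 42 libraries of C57/BL6 mice at least 8 weeks old. *Mtg16*-/- mice lack the corepressor MTG16, and *Mtg16* T/T mice are homozygous for a proline-to-threonine point mutation that weakens its binding to E proteins. The 2 alleles were kept in independent colonies, each with its own wild-type (WT) littermates, called here the null colony and the T/T colony. Crypts freed by EDTA from the proximal or distal 5 cm of the colon came from untreated mice of both colonies and both genotypes (23 libraries). Distal crypts came from both colonies after dextran sulfate sodium (DSS), which injures the epithelium, given at 2% for 5 days and followed by 4 days of water (13 libraries). Whole distal tumors came from WT and *Mtg16* T/T mice of the T/T colony that received 10 mg/kg of the carcinogen azoxymethane (AOM) and 3 cycles of 3% DSS (6 libraries). No tumors of *Mtg16*-/- mice were analysed here. Both alleles are carried in every cell of the animal, so immune cells of the mutants carry them too.

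Plasma cells are the antibody-secreting end stage of the B cell lineage. Most of those in the gut wall lie in the lamina propria, the connective tissue around the crypts, and make IgA. Its joined dimers bind the polymeric immunoglobulin receptor, encoded by *Pigr*, on the base of epithelial cells, which carry them into the lumen. Epithelial *Ccl28* attracts IgA plasma cells through the receptor CCR10. Crypts freed by EDTA are mainly epithelium. In RNA from mixed tissue, fewer plasma cells and less *Jchain* per plasma cell cannot be told apart.

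The gene (ENSMUSG00000067149.6) lies on the minus strand of chromosome 5 at chr5:88519809-88527891 (GRCm38), and its protein-coding transcript has 4 exons and 1393 bases. E proteins, the partners of MTG16, bind the E box CANNTG, which reads the same on both strands. The 250 bases before the RefSeq start of *Jchain* (chr5:88527898-88528147, minus strand, GRCm38.p6) are shown because both mutations bear on this class of factor. Capitals mark the E boxes.
Jchain promoter: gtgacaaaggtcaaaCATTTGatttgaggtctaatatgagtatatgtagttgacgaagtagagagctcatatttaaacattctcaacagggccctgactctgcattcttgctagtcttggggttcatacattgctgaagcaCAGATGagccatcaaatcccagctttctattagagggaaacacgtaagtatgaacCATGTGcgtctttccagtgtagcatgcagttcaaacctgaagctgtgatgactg
This window holds 3 E boxes. Of 32851 promoters of the same length, 66.2% hold at least 1 and 12.2% hold 3 or more. The promoters of *Derl3*, *Tnfrsf17*, *Pou2af1* and *Pigr* hold 2 each, and that of *Ccl28* holds 4. The octamer ATGCAAAT, searched on both strands, was in none of these 6 windows and in 1.6% of all promoters. These matches describe letters and not binding.

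The 38 libraries whose whole reads could be recovered held 32231389 to 74661922 reads assigned to genes. *Cbfa2t3*, the gene of MTG16, was lower in every *Mtg16*-/- library than in every WT library of its table in proximal crypts and after DSS. In untreated distal crypts the ranges met, at 424 to 1095 normalized counts in *Mtg16*-/- and 1027 to 1809 in WT. *Mtg16* T/T animals keep the gene, with 1509 to 2196 in distal crypts against 937 to 1040 in WT.

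*Jchain* was detected in all 42 libraries, and every tumor held more of it than every crypt library. As counts per 1000000 normalized counts of the library (CPM), a share that does not depend on how each table was scaled, it ranged from 3.52 to 42.9 CPM in the 36 crypt libraries, with a median of 10.5. In the 6 tumors it ranged from 574 to 2551 CPM, with a median of 1012. The ratio of the medians was 96.4, and the lowest tumor stood 13.4-fold above the highest crypt library. This contrast has no test, since crypts and tumors lie in separate tables and came by different preparations. Their library names also begin with different numbers, and the labels do not say what these mark. The tumors were dissected whole. Fibroblast markers summed to 2634 to 3607 CPM in tumors and 0.50 to 78.7 in crypts, and endothelial markers to 134 to 186 against 0.609 to 4.25. Their part in the *Jchain* contrast was not tested.

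Among the crypt groups, proximal *Mtg16*-/- crypts had the highest median, with libraries at 37.2 and 42.9 CPM. They did not overlap the next group in the order of medians, although a distal *Mtg16* T/T library reached 38.8. Proximal WT crypts followed, with 16.5 and 35.3 in the T/T colony and 9.0 and 25.5 in the null colony. Proximal *Mtg16* T/T crypts had 11.4 and 23.2. Distal *Mtg16* T/T crypts reached a median of 16.0 (9.45 to 38.8), *Mtg16*-/- 10.5 (8.06 to 17.7), and WT 8.63 (6.84 to 16.6) in the T/T colony and 8.52 (5.34 to 17.2) in the null colony. After DSS the medians were 10.9 in *Mtg16* T/T, 8.61 in *Mtg16*-/-, 6.24 in WT of the null colony and 4.07 in WT of the T/T colony. Among the groups below proximal *Mtg16*-/-, each overlapped its neighbour in this order. The lowest and the highest crypt library differed 12.2-fold, and the lowest and the highest tumor 4.44-fold.

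**Figure D1:**
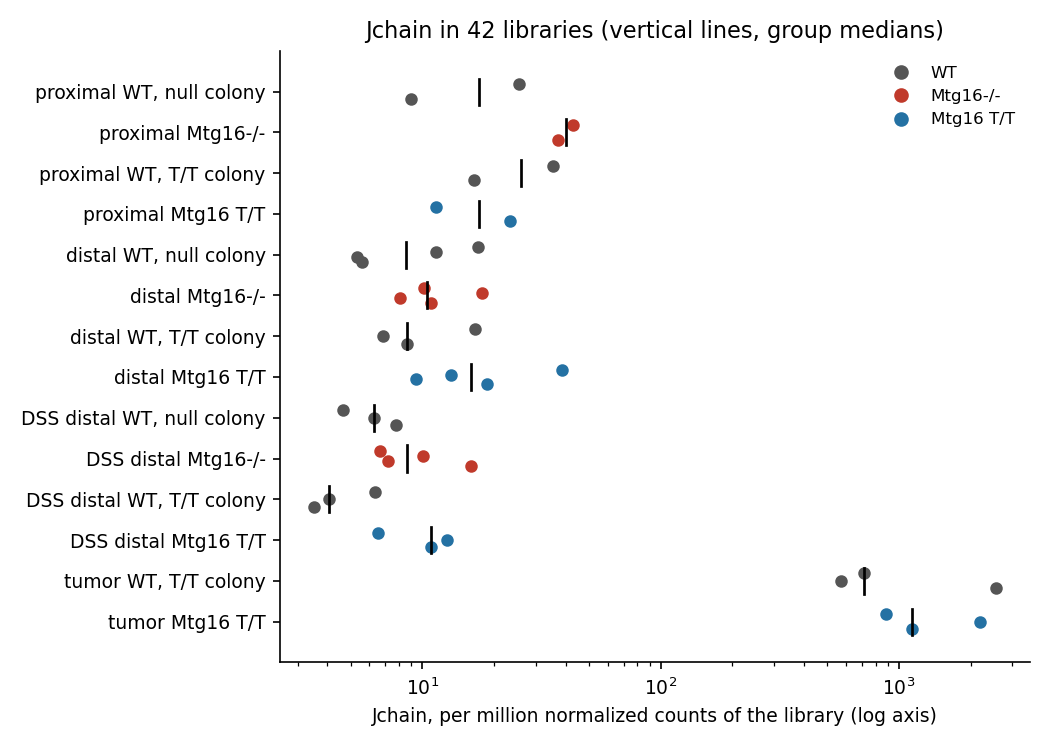
*Jchain* in each of the 42 libraries, in CPM (horizontal log axis), for the 14 groups. Each point is a library and each vertical line a group median. The 6 tumors lie between 574 and 2551 CPM and every crypt library lies at or below 42.9.

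*Jchain* was checked against the transcripts that define plasma cells. *Mzb1*, a chaperone of the endoplasmic reticulum that serves antibody assembly, *Derl3*, part of the machinery that removes misfolded proteins there, *Tnfrsf17*, the survival receptor BCMA, and *Pou2af1*, a B lineage coactivator, were all measured. Their sum was 0.64 to 10.3 CPM in crypts and 31.6 to 135 in tumors. The whole list of 15 plasma cell genes, some of which epithelium also makes, summed to 700 to 1633 CPM in crypts and 1068 to 1582 in tumors, with overlap. *Tnfrsf17* was at 0 in 12 crypt libraries and in no tumor, while *Mzb1*, *Derl3* and *Pou2af1* were above 0 in all 42. After group means were removed, *Mzb1* was the gene whose log2 level followed *Jchain* most closely across the 42 libraries (Pearson r = 0.73, 1st of 13779 genes). *Irf4*, a transcription factor of the plasma cell program, was 10th (r = 0.60), *Derl3* 14th (0.59) and *Pou2af1* 23rd (0.56). The B cell genes *Pax5* (0.53), *Ms4a1* (0.51), *Cd79b* (0.51) and *Cd79a* (0.48) were 36th, 45th, 46th and 61st. The rest of the plasma cell list was spread over the ranking, with *Eaf2* 63rd (0.48), *Tnfrsf13b* 207th (0.40), *Xbp1* 260th (0.38), *Slamf7* 320th (0.36), *Prdm1* 1087th (0.25), *Ccr10* 1577th (0.21), *Pim2* 1869th (0.19), *Txndc5* 2487th (0.16) and *Sdc1* 7450th (-0.02). In the 36 crypt libraries alone *Mzb1* was 2nd (r = 0.67), behind *Dusp10* (0.69), a phosphatase gene, while *Irf4* was 62nd (0.47), *Pou2af1* 122nd (0.42), *Derl3* 134th (0.41) and *Cd79a* 230th (0.37). There *Eaf2* was 532nd (0.31), *Xbp1* 5671st (0.05), *Ccr10* 7937th (-0.03) and *Txndc5* 9477th (-0.09). These correlations are descriptions, over libraries that share preparation within groups and, in most groups, the number that begins their names.

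**Figure D2:**
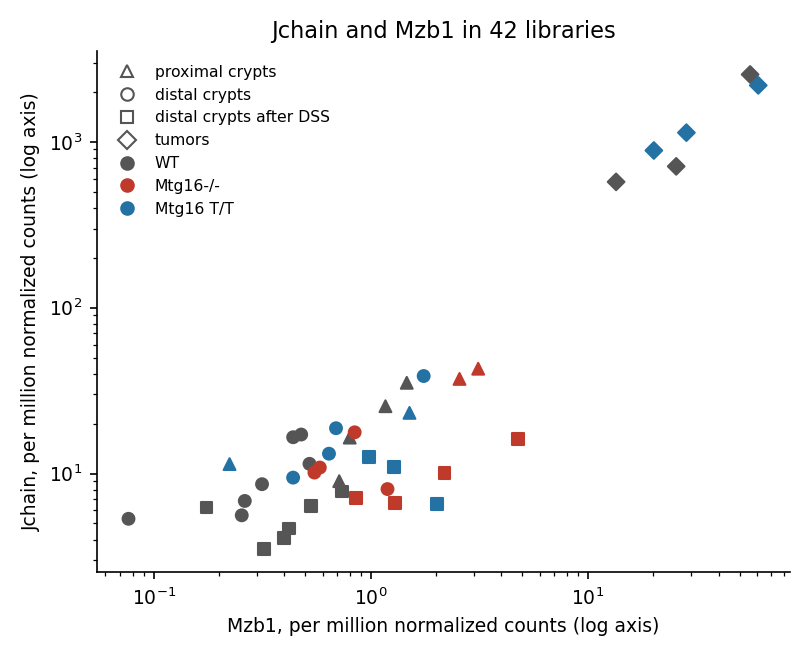
*Jchain* against *Mzb1*, both in CPM on log axes, in 42 libraries, with the shape giving the tissue and the colour the genotype. Tumors stand apart at the upper right, and crypts after DSS lie low on *Jchain* for their *Mzb1*.

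The relation between *Jchain* and these transcripts was not the same in all tissues. In untreated crypts there were 3.28 to 15.5 *Jchain* counts for each count of the 4 defining genes together (median 8.13, 23 libraries). After DSS there were 1.38 to 5.84 (median 3.05, 13 libraries), and in tumors 13.4 to 19.4 (median 18.2, 6 libraries). Tumors did not overlap crypts after DSS. These ratios have no test, and within-table values are given with the DSS comparison.

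**Figure D3:**
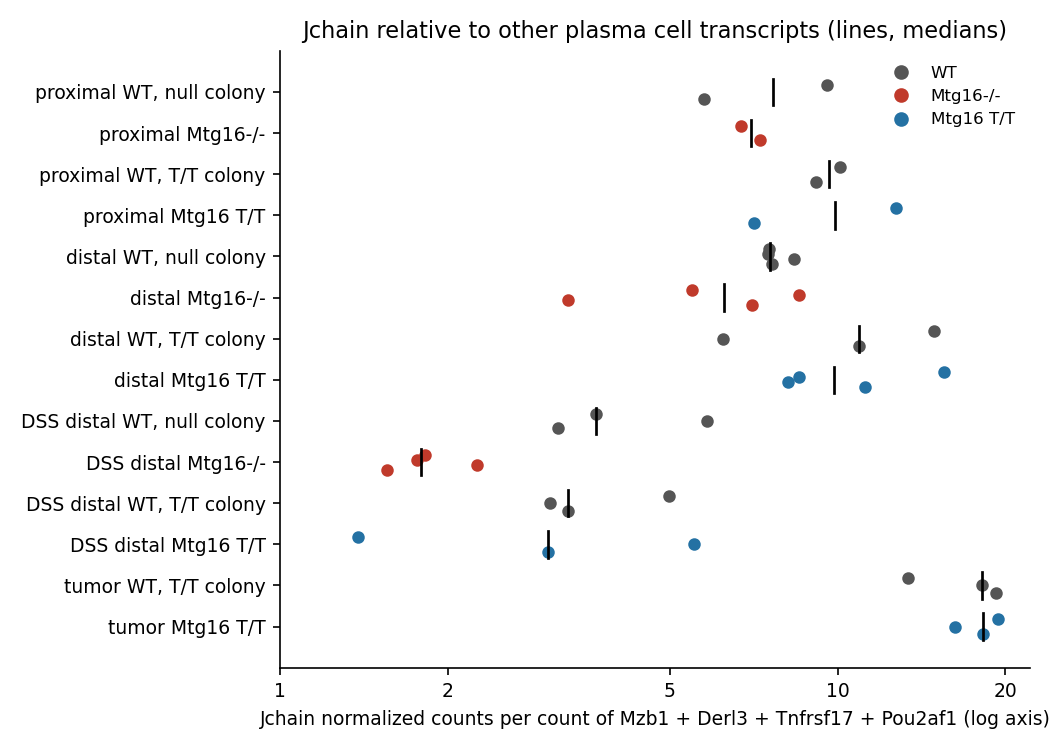
*Jchain* normalized counts per normalized count of *Mzb1*, *Derl3*, *Tnfrsf17* and *Pou2af1* together (horizontal log axis), 1 point per library and a line at each group median. *Mtg16*-/- crypts after DSS have the lowest median, with libraries at 1.56 to 2.26, and the 6 tumors lie at 13.4 to 19.4.

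The segment comparison asked how WT crypts of the distal colon differ from those of the proximal colon. *Jchain* was lower distally. The 4 proximal libraries held 390, 766, 1204 and 1604 normalized counts, and the 7 distal libraries ranged from 236 to 805 with a median of 365. The groups overlapped, and 4 of 7 distal libraries lay below every proximal one. The difference was -1.09 on the log2 scale (95% interval -1.97 to -0.21, limma, adjusted p = 0.0461), and the two-sided exact permutation test gave p = 0.0545. In this comparison 42.1% of all genes were called. Requests are read from the number that begins each library name, and the labels do not say what it marks. Within request 4149, which holds 2 proximal and 2 distal libraries of the null colony, the difference was -0.12 (adjusted p = 0.930). With the request as a covariate it was -0.12 (0.927). Within the T/T colony, where segment and request cannot be told apart, it was -1.36 (adjusted p = 0.0497). Within the null colony it was -0.80 (0.365). Leaving out 1 library at a time gave -1.47 to -0.79, and the call was lost in 8 of the 11 cases.

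The plasma cell list moved the same way. Of its 12 tested genes 7 were lower distally and none higher, with a median of -0.80 beside 0.00 for all genes, where 22% of all genes were called lower and 20.1% higher. *Mzb1* fell by 1.72 on the log2 scale (adjusted p = 0.00524), from a mean of 47.5 ± 16.4 (SD, n = 4) to 14.9 ± 7.04 (SD, n = 7) normalized counts, without overlap. *Slamf7*, a surface receptor of plasma cells and other lymphocytes, fell by 1.47 (0.00582). *Prdm1*, the master regulator Blimp-1, fell by 0.90 (0.00143), *Eaf2* by 1.31 (0.0395), *Derl3* by 0.69 (0.0438), *Txndc5* by 0.63 (7.44e-05) and *Sdc1* by 0.35 (0.00269). *Prdm1*, *Sdc1* and *Txndc5* are also made by epithelium. *Irf4* had -1.94 (0.0538) and *Pou2af1* -0.92 (0.247). Within request 4149 no gene of the list was called, and with the request as a covariate 1 was, where 2014 and 3189 of all genes were called. T cell markers moved in the same direction, with 6 of 7 lower distally, among them *Cd3e* at -2.09 (adjusted p = 0.000349). The T cell list summed to 9.65 to 31.6 CPM in distal and 58.5 to 85.2 in proximal libraries. *Pecam1*, of endothelium, also fell, by 1.16 (0.00682). Of 4 tested fibroblast genes *Dcn* fell by 1.48 (0.00857), while *Col1a1* (0.08), *Col1a2* (-0.64) and *Col3a1* (-0.27) overlapped and were not called. Of 8 myeloid genes 2 were lower (*Itgam* and *Tyrobp*) and 4 higher (*Csf1r*, *Adgre1*, *Cd14* and *S100a8*). The part of these cells in the plasma cell differences was not tested. The B cell list had none of 7 called, with a median of -0.39.

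The factors that serve IgA moved in both directions. *Ccl28* was higher distally, at 14295 against 7197 normalized counts (difference 0.98, adjusted p = 4.55e-06), without overlap. *Pigr*, at 420180 and 372400, had a difference of 0.17 (95% interval -0.13 to 0.48, adjusted p = 0.354). *Ccl25*, a gut-homing chemokine, and *Tnfsf13b*, the survival factor BAFF, fell by 0.63 (0.00688) and 0.57 (0.00985). The 2 colonies were compared in distal WT crypts. *Jchain* differed by -0.14 (95% interval -1.28 to 1.00, adjusted p = 0.952, exact p = 0.857), and none of the plasma or B cell genes was called, where 0.0506% of all genes were (0.0433% higher and 0.00722% lower). The T/T colony libraries all came from request 5094, and within that request the *Jchain* difference was -0.82 (adjusted p = 0.481), with none of either list called. Without null colony replicate 1 or 2, or T/T colony replicate 3, its sign turned (0.075, 0.11 and 0.25).

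**Figure D4:**
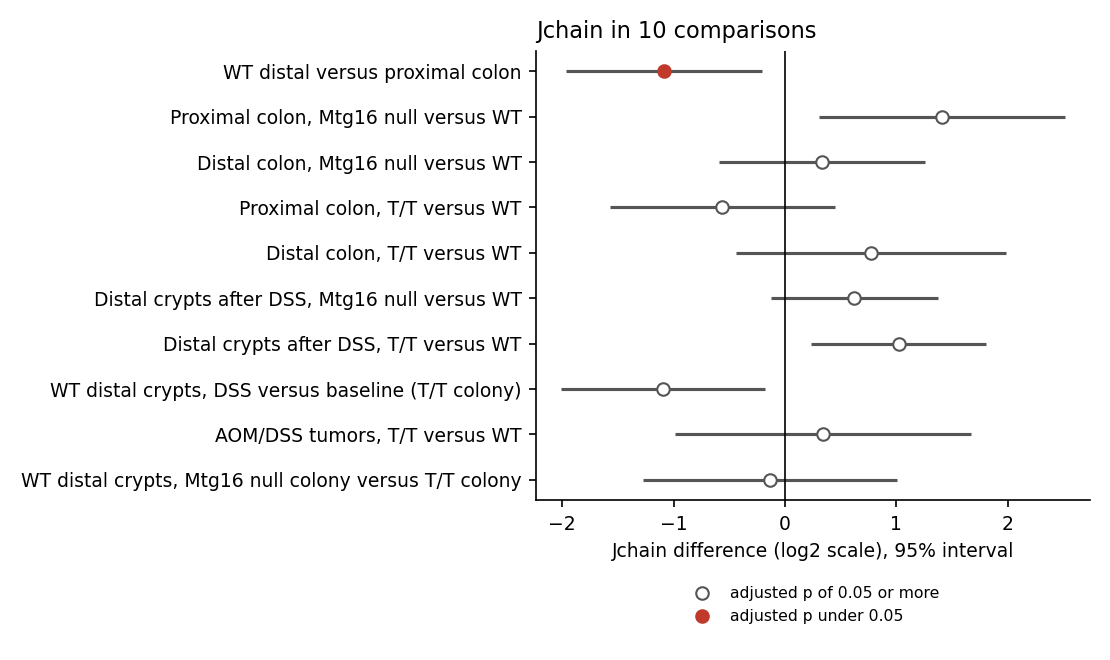
Difference in *Jchain* in each of the 10 comparisons (horizontal axis, log2 scale of the normalized count plus 1, first group minus second), with its 95% interval from limma. The filled point, distal against proximal WT crypts, is the only one with an adjusted p under 0.05.

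The next comparisons asked what loss of MTG16 changes in untreated crypts. In the proximal colon *Jchain* was higher in both *Mtg16*-/- libraries (1801 and 2122 normalized counts) than in both WT libraries (421 and 1284). The means differed 2.30-fold, and the log2 difference was 1.41 (95% interval 0.31 to 2.51), with an adjusted p of 0.704 by limma. With 2 against 2 libraries the exact permutation test cannot go below its value here, p = 0.333. Leaving out WT replicate 1 gave 0.61 (adjusted p = 0.583), and leaving out WT replicate 2 gave 2.21 (0.00585). In both fits the lone WT library is assumed to vary like the *Mtg16*-/- libraries. *Mzb1* followed with 124 and 155 against 33.5 and 58.9 counts (1.62, adjusted p = 0.445), *Derl3* with 54.8 and 63.9 against 22.3 and 34.1 (1.07, 0.802) and *Pou2af1* with 63.7 and 91.8 against 16.3 and 35.1 (1.63, 0.659). None of these groups overlapped, which with 2 against 2 libraries happens with a probability of 0.333 when labels are shuffled. Of the 12 plasma cell genes tested none was called. Their differences were positive in 7 and negative in 5, with a median of 0.13. All 7 tested B cell genes had positive differences, with a median of 1.00 and none called. *Cxcl13*, a chemokine that draws B cells, was higher in both mutant libraries (43.6 and 25.9 against 8.59 and 9.30 counts, 1.80, adjusted p = 0.661). All 5 tested fibroblast genes had positive differences, with a median of 0.52 and overlapping groups, and replicate 1 of *Mtg16*-/- held the most *Col3a1* (145 counts, 35.9 in replicate 2) and *Lyz2* (354 and 49.9). Of 6 tested myeloid genes 4 had positive and 2 negative differences, with a median of 0.20. *Itgam* was higher in both mutant libraries (0.32), while *Cd68* (-0.14) and *Tyrobp* (-0.22) were negative with overlap. None of these was called, and the part of these cells in the *Jchain* difference was not tested. In this comparison 0.0645% of all genes were called, 0.0359% higher and 0.0287% lower.

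In the distal colon *Jchain* did not separate the genotypes. *Mtg16*-/- libraries held 497, 367, 777 and 467 normalized counts and WT libraries 260, 242, 511 and 824. The difference was 0.33 (95% interval -0.60 to 1.26, adjusted p = 1.00 by limma, exact p = 0.571). It was 0.77 within request 5094 and -0.11 within request 4149, neither of them called. *Mzb1* did not overlap between the genotypes, with 25.3 to 54.4 counts in *Mtg16*-/- and 3.5 to 23.3 in WT (difference 1.38, adjusted p = 1.00). *Derl3* also stood apart, with 20.9 to 36.0 against 16.2 to 18.7 (0.58, 1.00). *Pigr* lay lower in every *Mtg16*-/- library, at 315070 to 376330 against 384927 to 521875 (-0.41, adjusted p = 1.00). All 7 tested T cell genes had positive differences (median 0.52) and 4 of 5 epithelial markers negative ones (median -0.069), none of them called. No gene of the plasma, B cell or IgA factor lists was called, where 0.239% of all genes were.

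The *Mtg16* T/T allele was compared in the same way. Proximal mutant libraries held 1026 and 513 normalized counts of *Jchain*, and WT libraries 745 and 1543, a difference of -0.56 (95% interval -1.57 to 0.45, adjusted p = 0.62 by limma). Over 9 alternative settings it ranged from -1.09 to -0.04. Distal mutant libraries held 712, 373, 528 and 1601, against 342, 280 and 683 for WT. The difference was 0.77 (95% interval -0.44 to 1.98, adjusted p = 0.863, exact p = 0.229), and 0.37 to 1.15 over 14 alternative settings. Of the 4 mutant libraries 2 lay above every WT library. The highest of them, replicate 4, also held the most *Mzb1* (72.4 counts, the next 26.3). It held the most *Col3a1* (375 counts, 5.72 to 42.9 in the other 3), *Dcn* (214, 5.72 to 23.5) and *Lyz2* (568, 127 to 276) as well, and WT libraries had 9.40 to 33.0, 10.4 to 23.4 and 105 to 162. The part of these cells in the *Jchain* difference was not tested. The lists gave no calls in either segment, where 0.232% (0.138% higher and 0.0944% lower) and 0.0369% of all genes were called.

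DSS in WT mice was tested in distal crypts of the T/T colony. *Jchain* was lower after DSS, at 171, 202 and 301 normalized counts, than at baseline, at 398, 321 and 789. The groups did not overlap, and the means were 224 ± 68.1 and 503 ± 251 (SD, n = 3 each). The difference was -1.09 (95% interval -2.01 to -0.17, limma, adjusted p = 0.0637), short of the threshold in a table where 35.6% of genes were called. The exact p of 0.1 is the smallest that 3 against 3 libraries allow. DESeq2 on the recovered reads gave -1.16 (adjusted p = 0.0200), and leaving out 1 library at a time with limma gave -1.36 to -0.71. *Jchain* was called in 1 of these 6 fits, without DSS replicate 3 (-1.32, 0.00779), where 9086 of 13573 genes were called. The other 5 fits called 1 to 1822 genes, the fewest without baseline replicate 2, so the share of genes called in this comparison rests on single libraries. Libraries of treated and untreated mice carry different request numbers, so treatment and request cannot be told apart. In this table levels also trended with transcript length, by -0.32 to 0.17 log2 units per doubling of length between libraries. With that trend removed the *Jchain* difference was -1.23 (adjusted p = 0.0465).

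The other plasma cell genes did not fall together with *Jchain*. Of 11 tested 4 were higher after DSS and 2 lower, with a median of 0.38, where 14% of all genes were called higher and 21.6% lower. *Mzb1* had 15.6, 19.6 and 25.3 counts after DSS and 14.6, 12.4 and 20.9 before (0.33, adjusted p = 0.450). *Derl3* rose by 1.16 (0.0268), from 12.3 ± 1.16 to 29.1 ± 7.07 (SD, n = 3 each). *Xbp1*, *Sdc1* and *Txndc5*, genes of secretory cells that epithelium also makes, rose by 0.65, 0.70 and 1.01, while *Prdm1* and *Slamf7* fell by 1.11 and 1.45. *Jchain* per count of the 4 defining genes was 6.22 to 14.9 at baseline and 3.05 to 4.99 after DSS in this colony, without overlap. *Ccl28* fell by 2.22 (adjusted p = 0.0310), with 2156, 1562 and 8567 counts after DSS against 13609, 14984 and 14231. *Pigr* was at 429860 and 418850 (0.03, 0.867). None of the 5 tested B cell genes was called. Markers of other cells were called higher too. Of 4 fibroblast genes tested the collagens *Col1a1* and *Col3a1* rose by 1.54 and 2.00, while *Dcn* had 0.10 (0.852). Of 5 epithelial genes *Cdh1* and *Vil1* rose by 0.44 and 0.40, and of 8 myeloid genes *Csf1r* rose by 0.76. None of the 7 T cell genes was called. The part of these cells in the differences was not tested.

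After DSS, *Mzb1* was higher in every mutant library than in every WT library of its colony, for both alleles, and *Jchain* was so for *Mtg16* T/T only. In the null colony, 918, 378, 564 and 384 normalized counts of *Jchain* were found in *Mtg16*-/- libraries and 445, 348 and 253 in WT, and 2 of 4 mutant libraries lay above every WT library. The difference was 0.62 (95% interval -0.13 to 1.37, limma, adjusted p = 0.511, exact p = 0.229), and 0.35 to 0.82 over 14 alternative settings. Libraries with the same replicate number deviated together here, but the labels do not say that these numbers mark pairs. With the number as a block the difference was 0.77 (95% interval 0.28 to 1.26, adjusted p = 0.0607). *Mzb1* had 271, 45.1, 123 and 74.7 counts against 42.2, 9.8 and 22.8, without overlap. Its difference was 2.22 without the block (adjusted p = 0.160) and 2.38 with it (0.00203). Levels trended with transcript length by -0.17 to 0.15 log2 units per doubling between these libraries. Without the block, limma called 91 of 14476 genes, and 158 with that trend removed.

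Under the block 4 of 12 plasma cell genes were called, all higher, where 5.72% of all genes were called higher, and without it none was. In all, 8.78% of genes were called under the block (3.06% lower), and 0.629% without it (0.38% higher and 0.249% lower). Beside *Mzb1* these were *Pou2af1* (1.91, adjusted p = 0.00533), *Derl3* (1.54, 0.0324) and *Irf4* (1.26, 0.0410). Of 12 B cell genes 5 were called higher, among them *Cd79a* (2.05, 0.00236), *Cd79b* (1.75, 0.00769), *Fcer2a* (2.52, 0.0288), a marker of follicular B cells, and *Cd22* (1.83, 0.0362), and without the block none was called (*Cd79a* adjusted p = 0.444). All 12 had positive differences with and without the block, and the list's median was 1.81 with it and 1.42 without. Under the block *Cxcr5*, the receptor that draws B cells into follicles, had 2.07 (0.0271), and without it the adjusted p was 0.346. Under the block *Pigr* and *Ccl28* fell by 0.79 (0.0265) and 0.67 (0.0236), and without it neither was called (0.196 and 0.377). *Pigr* lay between 190505 and 294777 in *Mtg16*-/- and between 386916 and 481360 in WT. *Tgfb1*, which drives switching to IgA, and *Ifng* rose by 0.91 (0.00280) and 2.49 (0.0477) under the block, and without it neither was called (0.275 and 0.244).

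Other cells moved as well in these libraries. Under the block 7 of 8 myeloid genes were higher, led by *Lyz2* at 3.58 (adjusted p = 5.58e-05), with 2 of 4 fibroblast genes and 1 of 7 T cell genes. Without the block only *Lyz2* was called among these 3 lists (limma, adjusted p = 0.0480). The myeloid list summed to 222 to 439 CPM in *Mtg16*-/- and 169 to 224 in WT, and the fibroblast list to 8.48 to 78.7 and 7.15 to 9.04. Their part in the plasma and B cell differences was not tested. *Jchain* per count of the defining genes was 1.56 to 2.26 in *Mtg16*-/- and 3.15 to 5.84 in WT, without overlap.

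In the T/T colony *Jchain* was higher in all 3 *Mtg16* T/T libraries after DSS (512, 624 and 337 normalized counts) than in all 3 WT libraries (186, 217 and 318). The means differed 2.04-fold, and the log2 difference was 1.02 (95% interval 0.23 to 1.81, limma, adjusted p = 0.419). The exact p of 0.1 is the smallest this design allows. *Pou2af1* had 62.3, 34.3 and 83.8 counts in *Mtg16* T/T against 11.3, 10.0 and 9.5 (2.35, adjusted p = 0.172), and *Mzb1* 60.1, 48.6 and 104 against 16.9, 21.2 and 26.7 (1.62, 0.265). *Cd79a* had 88.0, 44.4 and 221 against 10.6, 17.8 and 29.3 (2.36, 0.338). None of these groups overlapped. All 9 tested B cell genes had positive differences, with a median of 2.21, and none was called. Some markers of other cells also stood higher in every mutant library, with *S100a8* of neutrophils at 519 to 713 counts against 47.9 to 281 (2.53, 0.274), *Lyz2* at 429 to 755 against 179 to 391 (0.98, 0.523) and *Dcn* at 27.2 to 56.8 against 16.7 to 23.3 (1.02, 0.513). Others overlapped between the groups, among them *Itgam* (0.04), *Cd14* (0.04) and *Tyrobp* (0.10) of myeloid cells and the collagens *Col1a1* (0.67), *Col1a2* (0.68) and *Col3a1* (0.53). Of 7 T cell genes 6 had negative differences, with *Cd3e* at -0.58 and *Cd3d* at -0.41 with overlap and *Cd8a* lower in every mutant library (means 142 and 162, -0.18), and none was called. The myeloid list summed to 153 to 245 CPM in *Mtg16* T/T and 146 to 169 in WT, and the fibroblast list to 2.29 to 14.9 and 2.97 to 7.34. Their part in the plasma and B cell differences was not tested. *Jchain* per count of the defining genes was 1.38 to 5.52 in *Mtg16* T/T and 3.05 to 4.99 in WT, with overlap. *Pigr* lay lower in every mutant library, at 208551 to 350157 against 397197 to 499987 (-0.71, 0.408). All 5 epithelial markers had negative differences too, with *Epcam* (-0.17) and *Cdh1* (-0.16) lower in every mutant library and *Krt8* (-0.47), *Krt18* (-0.42) and *Vil1* (-0.34) overlapping, and none was called. In this comparison 0% of 13648 genes were called by limma, 1197 had an unadjusted p under 0.05, and DESeq2 on the recovered reads called 291. With DESeq2, 2 plasma cell and 4 B cell genes were called, all higher. Levels trended with transcript length by -0.23 to 0.32 log2 units per doubling between these libraries, and with that trend removed the *Jchain* difference was 1.08. Whether the 2 alleles differ in their effect after DSS was not tested.

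**Figure D5:**
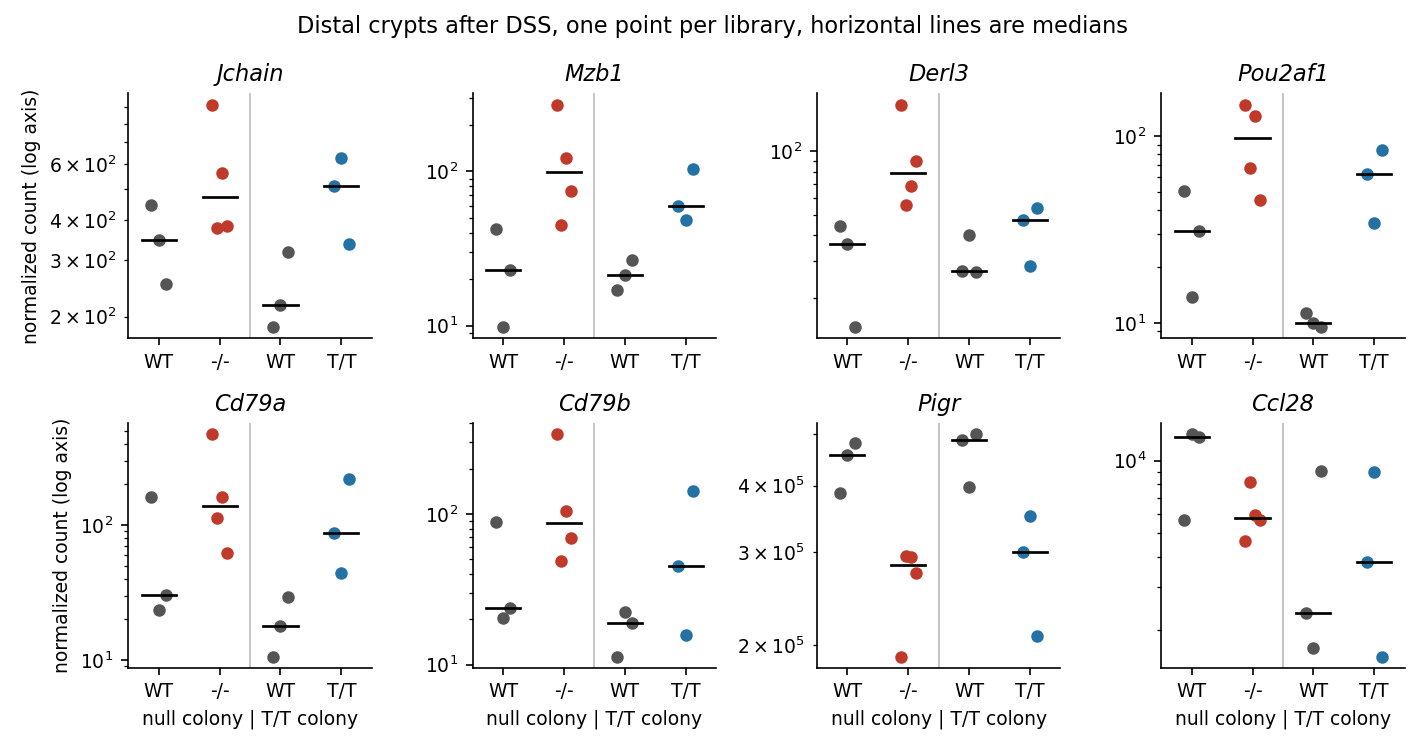
Normalized counts (vertical log axes) of *Jchain*, 3 plasma cell genes, 2 B cell genes, *Pigr* and *Ccl28* in distal crypts after DSS, 1 point per library, with horizontal lines at the medians and a vertical line between the null colony and the T/T colony, which were scaled separately. *Mzb1* is higher and *Pigr* lower in every mutant library than in every WT library of its colony.

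In AOM/DSS tumors *Jchain* varied widely within each genotype. WT tumors held 123864, 27525 and 35619 normalized counts and *Mtg16* T/T tumors 55153, 106465 and 42134. The ranges overlapped, and the difference was 0.34 (95% interval -0.98 to 1.67, limma, adjusted p = 0.998, exact p = 0.600). Its sign turned to -0.04 without *Mtg16* T/T replicate 2 and -0.08 without WT replicate 2. *Mzb1* ranged from 647 to 2715 in WT and 956 to 2961 in *Mtg16* T/T (0.27, 0.998). *Jchain* per count of the defining genes ranged from 13.4 to 19.4 over the 6 tumors.

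The WT tumor with the most *Jchain*, replicate 1, also held the most *Cd79a*, with 1372 counts against 312 to 1178 in the other tumors. The B cell list summed to 12.0 to 106 CPM in WT tumors and 23.5 to 53.6 in *Mtg16* T/T tumors, and crypts had 0.842 to 25.5. Germinal center genes summed to 20.9 to 23.6 CPM in tumors and 2.47 to 7.05 in crypts. *Pigr* was lower in tumors, at 1252 to 3031 CPM against 3338 to 11688 in crypts, where the 5 epithelial markers summed to 6894 to 10496 CPM in tumors and 9726 to 16842 in crypts, and *Ccl28* was at 15.9 to 76.0 against 30.0 to 447. Between the tumor genotypes *Pigr* differed by 0.43 and *Ccl28* by 0.78, with adjusted p of 0.998 each. Of the 15900 genes tested 0% were called by limma, 392 had an unadjusted p under 0.05, and DESeq2 on the recovered reads called 25. No gene of the plasma or B cell lists was called by either.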

How the data were processed

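RNA of colon crypts and tumors was sequenced as paired-end poly(A) libraries. Per the labels and the study's methods, the authors trimmed reads with fastp 0.20.0, quantified them with Salmon 1.3.0 on GENCODE vM21 (mm10), and normalized with DESeq2 1.26.0 in R 3.6.3. The deposited signal values are these normalized counts, scaled within each table, so tests stayed within a table. The authors' fold changes and p-values, which the tables also hold, were not used. Whole reads came back from 7 tables (100% of nonzero values within 0.01 of a whole read). In the 2 proximal mutant tables a size factor lay too close to 1, so no count test was run there.

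The main model was limma 3.58.1 with a mean-variance trend (R 4.3.3), fitted to log2 of the normalized count plus 1 in genes averaging 10 or more, and p-values were adjusted by Benjamini and Hochberg across the whole table (threshold 0.05). Differences are on that log2 scale and understate changes of low genes. Exact permutation tests are two-sided. The share of all genes without overlap is not given here, so lack of overlap only describes the genes named. Over the 10 comparisons the smallest adjusted exact p for *Jchain* was 0.333. Each library is taken as 1 mouse or tumor of its group, which the labels do not state, so p-values measure the spread between these libraries. Alternatives used the recovered reads, in edgeR (version 4.0.16) or DESeq2 (version 1.42.0), other pseudocounts and filters, covariates and libraries left out. Replicate numbers were taken to pair libraries in the DSS null comparison, where same-numbered libraries deviated together (correlations 0.55, 0.46 and 0.32), and in no other. The labels do not say that these numbers mark pairs. After DSS in the T/T colony the same correlations were -0.03, -0.71 and -0.77. The gene and the lists were chosen with earlier results of these data known, and the genes named are *Jchain*, called list members and, chosen after their values were seen, defining markers and others that were not called. The planned rule named constant and variable chain genes, which were not analysed here, and 1 called B cell gene is not reported here. Likeness to *Jchain* was ranked by a rule set after values were seen, on log2(CPM + 0.1) over genes averaging at least 0.5 CPM.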

Additional observations from a re-analysis of the deposited data

Results flagged for a closer look

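In groups of 4 or more libraries, the highest or lowest value of *Jchain* and of the plasma cell, B cell and IgA factor genes was compared with its nearest neighbour, and 8 of 107 groups tested held a library apart from the others by Dixon's criterion. Chance flags about 1 in 20 groups. No *Jchain* value was among them. In distal *Mtg16* T/T crypts replicate 4, which also held the most *Jchain*, was high for *Mzb1* (72.4 normalized counts, the next 26.3) and *Tnfrsf17* (7.14, the next 1.02), and replicate 1 for *Irf4* (27.1, the next 17.2). *Ccl28* was high in 1 distal WT library of the null colony, at 19953 in the genotype table and 19410 in the segment table, where the next was 14074. *Pou2af1* was high in a distal WT library (62.1, the next 26.2) and *Tnfrsf13b* in a proximal WT library (21.7, the next 14.3). *Xbp1* was high in 1 *Mtg16*-/- library after DSS (19747, the next 15611).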

How the results depend on the processing

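Over the 10 comparisons 118 of 141 alternative values for *Jchain* kept their direction and side of the threshold. Segment: the *Jchain* call was lost with the request as a covariate (-0.12), within request 4149 (-0.12), with colony as a covariate (-1.06) and within the null colony (-0.80), and leaving out 1 library gave -1.47 to -0.79. The plasma cell list then had 1, 0 and 2 calls with the request as a covariate, within the request and within the null colony, and 4 within the T/T colony, where 3189, 2014, 3540 and 4211 of all genes were called. DSS in WT: *Jchain* was called with the replicate number as a block (-1.09), with the length trend removed (-1.23) and with DESeq2 (-1.16), and leaving out 1 library gave -1.36 to -0.71. That comparison's plasma cell calls ranged from 0 to 7 and its B cell calls from 0 to 1 without 1 library, while calls over all genes ranged from 1 (without baseline replicate 2) to 9086 (without DSS replicate 3), and the B cell list had 2 with no filter on low values and 2 with DESeq2, where 4601 and 5943 of 17589 genes were called. Leaving out 1 library gave 0.61 to 2.21 for *Jchain* in proximal *Mtg16*-/- crypts, -0.081 to 1.00 in tumors (-0.081 without WT replicate 2, -0.039 without *Mtg16* T/T replicate 2) and -0.48 to 0.25 between the colonies (-0.82 within request 5094), and 0 to 1 B cell calls in the segment comparison. In distal *Mtg16*-/- crypts it was -0.11 within request 4149. With the replicate number as a block, the plasma cell list had 1 call in proximal *Mtg16* T/T crypts and 4 after DSS in *Mtg16*-/- crypts (3 with DESeq2), and the B cell list 1 call in the segment comparison and 5 after DSS in *Mtg16*-/- crypts. After DSS in *Mtg16* T/T crypts DESeq2 gave 2 plasma cell and 4 B cell calls, where 291 of 17683 genes were called. The block changed no other *Jchain* call. Over all genes, calls went from 5824 to the counts above (segment) and to 5632 with the block, from 32 to 151 with the block (proximal *Mtg16* T/T), from 4833 to 2679 with the block (DSS in WT), from 91 to 1271 with the block and 776 with DESeq2 (*Mtg16*-/- after DSS), and from 33 to 220 with DESeq2 (distal *Mtg16*-/-). The cause of these changes was not tested. The ratio of tumor to crypt medians was 96.5 as a share of the other genes and 143 against 4 epithelial transcripts. Most groups hold 2 to 4 libraries, which limits what can be called. The trend with transcript length was removed as an alternative chosen after seeing the data. With DESeq2 the adjusted p is missing for some low genes, which were left out of its counts.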
